A study of Mus musculus with 12 samples.

Results

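Lactate dehydrogenase and the carriers that move lactate across membranes were followed through 8 genes, selected by symbol from the 17922 genes of the table: Ldha, Ldhb and Ldhd, the carriers Slc16a1, Slc16a3 and Slc16a7, and the carrier partners Bsg and Emb. All 8 passed the filter on low counts in every comparison. RNA had been sequenced from primary chondrocytes (cartilage cells) of mouse ribs, which were released with collagenase and cultured for another day. The 12 samples formed 4 groups of 3. The LDH knockout (Col2-Cre: Ldha fl/fl: Ldhb+/-) and its littermate control came from mice of postnatal day 5. The Acly knockout (Col2-Cre: Acly fl/fl) and its littermate control came from embryos of stage E18.5. All mice were on a mixed strain in which C57BL/6 dominates. Col2-Cre expresses the recombinase from type II collagen regulatory sequence, which is active in chondrocytes. The labels give the control genotype only as the control of each line, so its Cre, floxed and Ldhb alleles are not known here. They do not say whether the 3 samples of a group came from separate animals, so p-values measure the spread between these samples, which may be technical.

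Cells that rely on glycolysis reduce pyruvate to lactate, which regenerates the NAD+ that glycolysis consumes. Lactate dehydrogenase is a tetramer of A subunits (Ldha), which favour lactate formation, and B subunits (Ldhb), which favour lactate oxidation, whereas Ldhd is a mitochondrial enzyme that oxidises D-lactate. Lactate leaves or enters with a proton through monocarboxylate transporters: MCT1 (Slc16a1) carries it in either direction, MCT4 (Slc16a3) is the exporter typical of glycolytic cells, and MCT2 (Slc16a7) takes it up with high affinity. MCT1 and MCT4 need basigin (Bsg) to reach the plasma membrane, and embigin (Emb) is the usual partner of MCT2. Growth cartilage is poorly vascularised and glycolytic, and Ldha and Slc16a3 are known targets of the hypoxia-inducible factor HIF-1.

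Upstream sequence was available for 6 of the 8 genes in the RefSeq promoter table (build GRCm38.p6), and 4 windows of 250 bases upstream of an annotated start are shown, those of the 2 main subunits and of the carriers MCT1 and MCT4. Capitals mark ACGTG on either strand (read as CACGT on the other), a form of the core of the hypoxia response element. The form GCGTG was not searched, so a window with 0 places may still hold it. Where they read CACGTG, the palindrome that Myc-family factors also bind, overlapping matches on both strands were counted as 1 place.
Ldha promoter, chr7:46845554-46845803, plus strand: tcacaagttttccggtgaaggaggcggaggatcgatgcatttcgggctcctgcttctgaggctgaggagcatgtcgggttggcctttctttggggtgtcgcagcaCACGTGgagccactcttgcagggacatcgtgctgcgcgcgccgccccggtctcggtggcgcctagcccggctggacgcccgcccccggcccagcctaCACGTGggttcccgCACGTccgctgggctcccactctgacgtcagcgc
Slc16a3 promoter, chr11:120948817-120949066, plus strand: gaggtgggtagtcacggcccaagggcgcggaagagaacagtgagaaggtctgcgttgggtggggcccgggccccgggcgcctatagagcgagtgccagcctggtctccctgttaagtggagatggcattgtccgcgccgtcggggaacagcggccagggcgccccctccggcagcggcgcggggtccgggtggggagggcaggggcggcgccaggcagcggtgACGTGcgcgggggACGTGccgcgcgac
Slc16a1 promoter, chr3:104638414-104638663, plus strand: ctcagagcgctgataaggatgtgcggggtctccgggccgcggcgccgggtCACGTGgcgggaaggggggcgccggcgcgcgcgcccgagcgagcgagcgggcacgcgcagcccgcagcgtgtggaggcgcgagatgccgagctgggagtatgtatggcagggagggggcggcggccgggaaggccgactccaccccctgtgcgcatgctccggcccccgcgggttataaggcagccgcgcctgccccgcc
Ldhb promoter, chr6:142507958-142508207, minus strand: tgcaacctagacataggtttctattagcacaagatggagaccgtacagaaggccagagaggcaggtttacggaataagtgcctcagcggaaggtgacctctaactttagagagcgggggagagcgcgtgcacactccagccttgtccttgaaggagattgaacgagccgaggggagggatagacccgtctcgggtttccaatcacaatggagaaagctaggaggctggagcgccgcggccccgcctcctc
The Ldha window shown held 3 such places, while the window of a second annotated Ldha start (chr7:46846832-46847081) held 0. The Slc16a3 window held 2, the Slc16a1 window held 1 and the Ldhb window held 0. Of the windows not shown, that of Ldhd held 1 and that of Emb held 0. Among 32851 windows of the same length in the table, 16.6% held at least 1 place, 1.95% at least 2 and 0.256% at least 3. These matches describe the letters of the windows and do not show that a factor was bound in these cells.

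Depth was even, at 26362407 to 28154143 expected counts per sample, and 3 counts correspond to 0.107 to 0.114 CPM, the counts of a gene per 1000000 counts of its library. Levels are given as CPM scaled over all 12 samples. The deposited length-corrected values (TPM, the corresponding unit per 1000000 transcripts) were used to compare genes with each other. The first principal component of log2 CPM held 73.4% of the variance and separated the LDH samples from the Acly samples. On it, Acly knockout replicate 2 lay at 35.4 and the other 5 Acly samples between 60.4 and 70.8. Summed Y-linked CPM differed within and between groups: it was at most 0.0388 in the LDH knockouts and 0.632, 97.6 and 106 in their controls, and 0.0707 to 78.8 in the Acly knockouts against 0.355 to 111 in theirs. Chondrocyte markers (Col2a1, Acan and 9 others) summed to 19260 to 29032 CPM in LDH knockouts and 10584 to 12284 in LDH controls. The sums were 13615 to 16048 CPM in Acly knockouts and 8114 to 8830 in Acly controls. Col2a1 made up most of each sum, at a mean of 9638 CPM in LDH controls and 5477 in Acly controls. Matn1 was at most 0.275 CPM in the LDH samples and at 0 in LDH control replicate 2. In bulk samples, fewer cells of a type and less RNA per cell cannot be told apart.

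Ldha was the most abundant of the 8 genes in the control cells. In LDH controls, mean TPM was 1024 for Ldha, 708 for Bsg, 70.9 for Emb, 39.6 for Slc16a1, 18.2 for Ldhb, 18.2 for Slc16a3, 0.423 for Slc16a7 and 0.370 for Ldhd. The samples of Ldhb overlapped those of Slc16a3, and those of Slc16a7 overlapped those of Ldhd, whereas every other neighbouring pair in that order was separated. In Acly controls the order was again Ldha (1206), Bsg (792) and Emb (129), followed by Slc16a3 (49.5), Slc16a1 (41.2) and Ldhb (40.9), whose samples overlapped. Ldha thus ranked 150 by mean TPM among all genes in LDH controls and 125 in Acly controls. Ldhd and Slc16a7 stayed below 1 TPM in every sample, with 9 to 56 expected counts per library, and their values carry the largest counting error.

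The LDH knockout combines deletion of Ldha with loss of 1 allele of Ldhb, and Ldha was the targeted gene to check first. Ldha read 84.0, 93.7 and 97.7 CPM in the LDH knockouts and 904, 839 and 940 CPM in their controls. No sample of either group came near the other, and the knockouts kept 10.3% of the control level, a log2 fold change of -3.29 ± 0.10 (SE, n = 3 per group; edgeR adjusted p = 3.26e-07). In the same 13321 genes tested, 2.49% passed the threshold. Ldha was called under all 16 alternatives tried, with log2 fold changes of -3.41 to -3.22. By mean TPM it ranked 1547 among all genes in the knockouts, at 103 TPM, where its samples overlapped those of Emb and lay below those of Bsg. The deleted part of the gene is not given in the sources used here, and a count per gene can include reads from outside it. Chondrocyte markers moved in these libraries too, with 10 of 10 tested higher in every knockout sample and 7 of them called in edgeR. Osteoblast markers summed to 19.1 to 33.6 CPM against 63.9 to 84.4. Their part in the member values was not tested.

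Ldhb, of which the knockouts carry 1 intact allele, read 15.5, 17.3 and 15.1 CPM in LDH knockouts and 13.1, 12.01 and 12.002 CPM in their controls. All 3 knockout samples lay above all 3 controls. The difference of 0.37 ± 0.11 on the log2 scale (129% of control) did not pass the test in edgeR (adjusted p = 0.115), and adjusted p lay between 0.0674 and 0.441 over 16 alternatives. The gene-level count of Ldhb was thus not lower in cells with 1 intact allele, and the Ldhb alleles of the controls are not stated. Ldhd read 0.808, 1.06 and 0.970 CPM in knockouts and 0.485, 0.487 and 0.355 CPM in the control samples, again without overlap, on 21 to 27 against 9 to 13 expected counts. Its log2 fold change of 1.09 ± 0.33 also missed the threshold in edgeR (adjusted p = 0.111).

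With Ldha reduced, the makeup of the lactate dehydrogenase transcripts shifted. Ldhb made up 19.1%, 19.1% and 16.4% of the summed Ldha and Ldhb TPM in the 3 LDH knockouts and 1.82%, 1.82% and 1.61% in the controls. The mean share was 18.2% ± 1.52 (SD, n = 3) against 1.75% ± 0.120 (n = 3), a difference of 16.4 percentage points (two-sided exact permutation p = 0.1, the smallest that 3 against 3 samples allow; 0.15 after adjustment over 9 such tests). The sum itself was 126 ± 8.88 TPM in knockouts and 1043 ± 25.8 in controls, or 12.1% (exact permutation p = 0.1, adjusted 0.15). Since Ldha was the deleted gene, both values follow from its fall and the level of Ldhb, and Ldhb remained the smaller share in every sample.

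**Figure D1:**
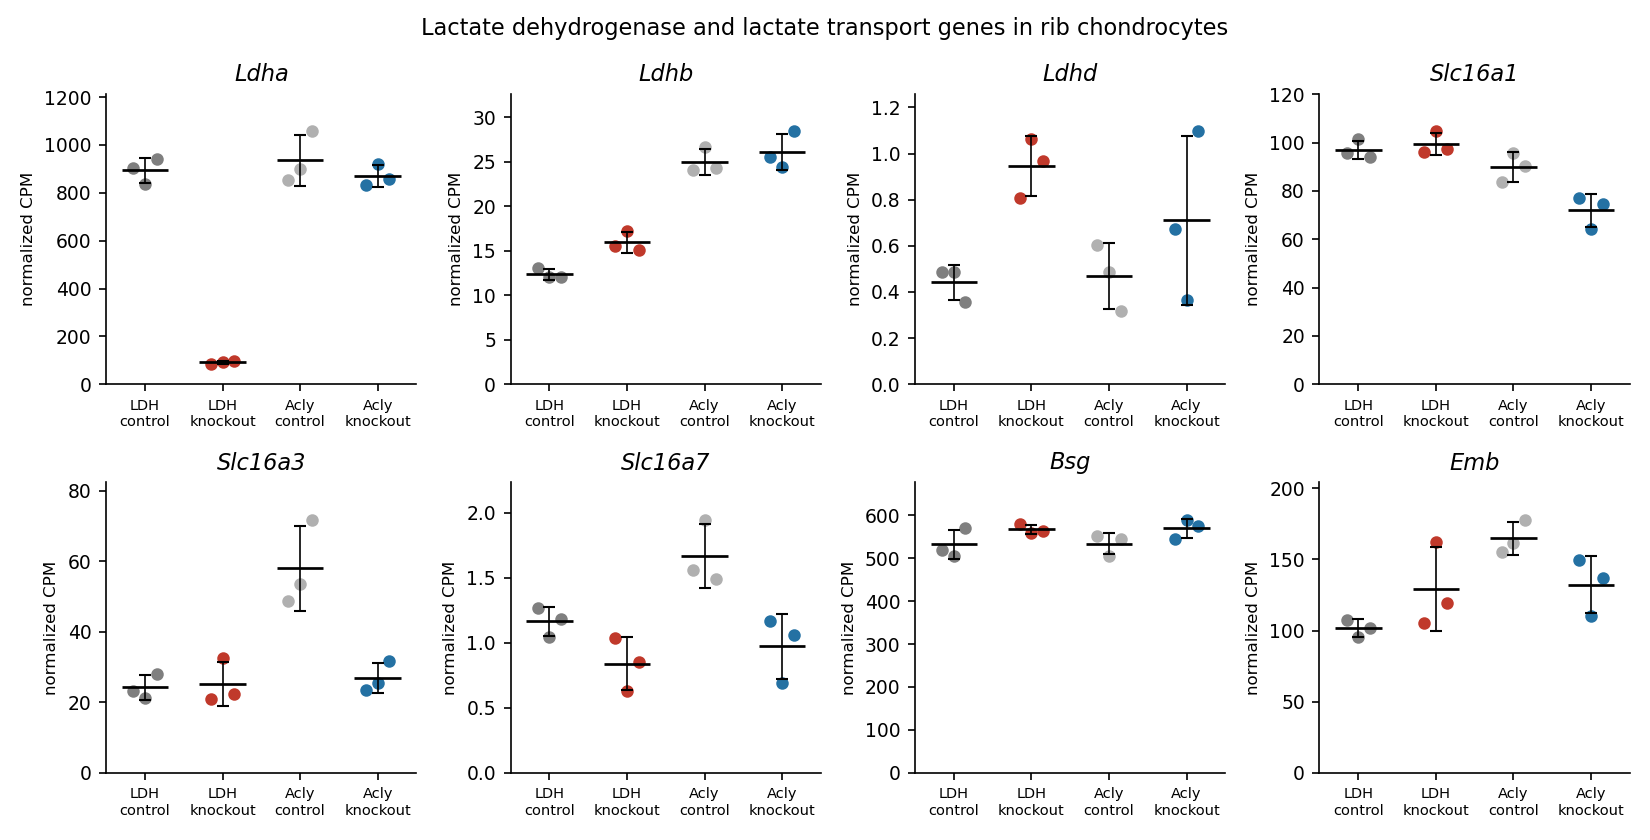
Normalized CPM (y axis, linear, from 0, scaled per panel) of the 8 genes in the 4 groups of 3 samples; points are samples, and lines with bars are the group mean ± SD. Ldha sits at 84.0 to 97.7 CPM in LDH knockouts and at 832 CPM or more in every other sample, and Slc16a3 is highest in the 3 Acly controls.

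The transporters did not pass the test in LDH knockouts. Slc16a1 read 96.3, 105 and 97.2 CPM in knockouts and 95.7, 101 and 94.2 CPM in controls, so that the groups overlapped, and its log2 fold change was 0.03 ± 0.07 (edgeR adjusted p = 0.842). Slc16a3 read 21.0, 32.5 and 22.5 CPM in knockouts and 23.3, 21.3 and 28.1 CPM in controls. Its groups also overlapped, with a log2 fold change of 0.06 ± 0.17 (edgeR adjusted p = 0.878). The low Slc16a7 read 1.04, 0.629 and 0.853 CPM in knockouts and 1.27, 1.05 and 1.18 CPM in controls. Its knockout values lay just below those of the controls in CPM but overlapped them in TPM, and the log2 fold change of -0.47 ± 0.30 did not pass the test (edgeR adjusted p = 0.421).

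Neither gene for a carrier partner passed the test. Bsg read 579, 558 and 564 CPM in LDH knockouts and 520, 506 and 571 CPM in controls, a log2 difference of 0.09 ± 0.08 (edgeR adjusted p = 0.589). Emb read 106, 163 and 120 CPM in knockouts and 108, 95.5 and 102 CPM in controls. Knockout replicate 2 was the highest, the groups overlapped, and the log2 difference was 0.34 ± 0.14 (edgeR adjusted p = 0.216). In all, 1 of 8 members was called, the deleted Ldha, whose fall was set by the design. No other member was called, where 2.49% of all genes were. Values of 2 members were higher in every knockout sample (Ldhb, Ldhd) and of 2 lower (Ldha, Slc16a7), where 12.2% and 12.1% of all genes did not overlap in those directions. The members' median log2 fold change was 0.076, beside 0.0051 over all genes tested.

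The Acly knockout targets ATP citrate lyase, which makes cytoplasmic acetyl-CoA from citrate. Acly itself was at 69.9 ± 18.8 CPM in knockouts against 187 ± 4.69 in controls, or 37.4% (log2 fold change -1.41 ± 0.17, edgeR adjusted p = 0.0313). In these cells 0.136% of 13973 genes passed the threshold, and 0 of the 8 members did in edgeR. At an unadjusted p under 0.05 there were 4 members (Slc16a1, Slc16a3, Slc16a7 and Emb), where 15.8% of all genes had such a p, and DESeq2 called 1 (Slc16a3). The same 4 were lower in all knockout samples than in all controls, where 12.4% of all genes were, and 0 members were higher in all of them (9.73% of all genes). The median over the 8 was -0.20, beside -0.0018 over all genes tested.

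Slc16a3, the gene for the lactate exporter MCT4, read 23.5, 25.5 and 31.6 CPM in Acly knockouts and 48.8, 53.6 and 71.7 CPM in their controls. Every knockout sample lay well below every control, at 46.3% of the control mean. The log2 fold change was -1.10 ± 0.16, with an unadjusted p of 9.75e-05 that became 0.0592 after adjustment over all genes in edgeR, so it did not pass. The outcome lay near the threshold and depended on the fit: adjusted p was 0.0245 with no filter on low counts, 0.0281 with all 12 samples in the fit, 3.43e-07 with DESeq2 and 0.0173 without Acly knockout replicate 2. It lay between 0.0505 and 0.0908 with other scalings, a filter at 1 CPM, the deposited FPKM values or a term for Y-linked signal, and between 0.109 and 0.233 when any other single sample was left out. The log2 fold change itself ranged only from -1.22 to -0.91.

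**Figure D2:**
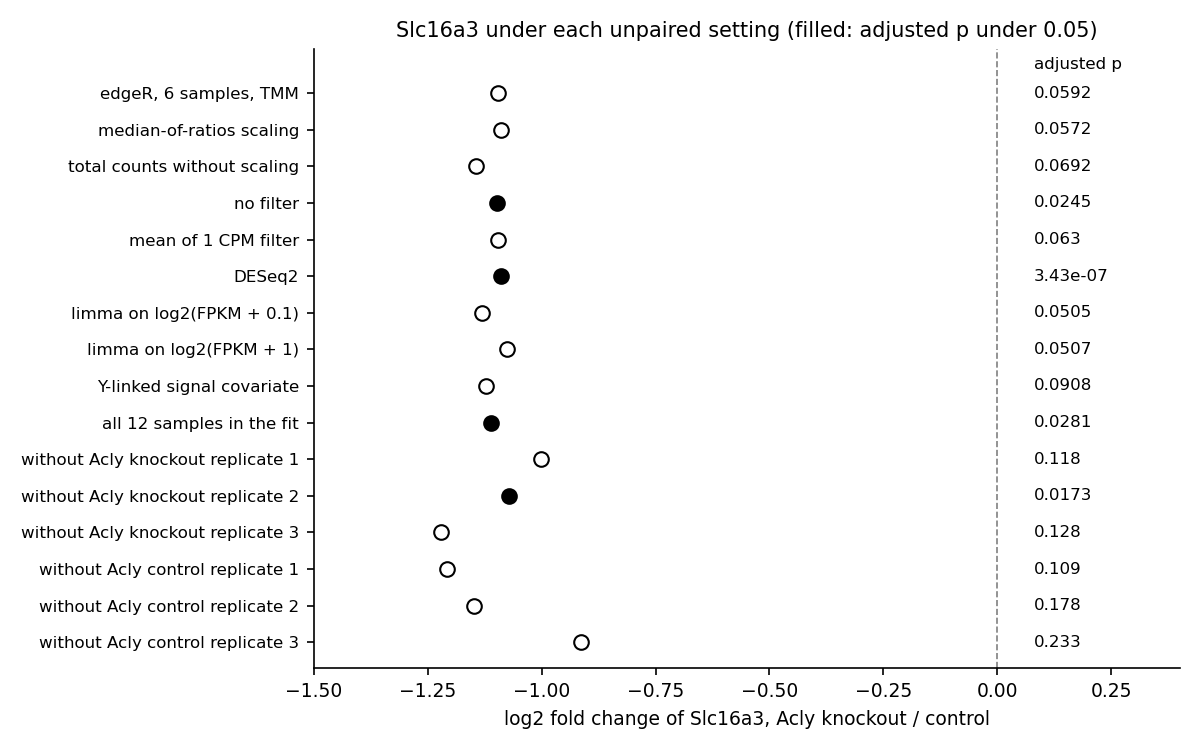
Log2 fold change of Slc16a3 in Acly knockouts against controls (x axis) for each fit without pairing (y axis), with the adjusted p at the right; filled points have an adjusted p under 0.05. All estimates lie between -1.22 and -0.91, while adjusted p falls on either side of 0.05.

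Cell type markers also differed in level between these libraries. Fibroblast markers (Col1a1, Dcn and 6 others) summed to 1535 to 3877 CPM in Acly knockouts (median 3786) and 4191 to 4954 in controls. Of these 0 of 8 passed the threshold in edgeR (3 at an unadjusted p under 0.05, 1 by DESeq2), and 8 of 8 estimates were below 0. Osteoblast markers summed to 101 to 147 CPM against 154 to 180, without overlap, with 0 of 6 tested past the threshold in edgeR (2 and 1) and 5 of 6 estimates below 0. Chondrocyte markers were higher in the knockouts, as given above, with 2 of 11 called, both higher, and 10 of 11 estimates above 0. Skeletal muscle markers summed to 204 to 411 (median 337) against 362 to 469 CPM, with 0 of 10 past the threshold in edgeR (2 and 1) and 9 of 10 estimates below 0. Knockout replicate 2 had the lowest fibroblast and muscle sums. No listed marker was at 0 in all samples. Their part in the Slc16a3 values was not tested.

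The other carriers and Emb differed less. Slc16a1 read 77.2, 64.1 and 74.5 CPM in Acly knockouts and 83.6, 95.8 and 90.4 CPM in the control samples, with a log2 fold change of -0.31 ± 0.10 (80.0% of control; edgeR adjusted p = 0.252). Slc16a7 read 1.17, 0.691 and 1.06 against 1.56, 1.95 and 1.49 CPM, a log2 fold change of -0.76 ± 0.29 (edgeR adjusted p = 0.285). Emb read 150, 110 and 137 against 155, 162 and 178 CPM, a log2 fold change of -0.30 ± 0.12 (edgeR adjusted p = 0.284). For these 3 genes the groups did not overlap, though the nearest Emb samples lay close together, and no call was made under any of the alternatives. Knockout replicate 2, which stood apart on the first principal component, was the lowest of its group for all 3. Bsg, the partner of MCT1 and MCT4, read 544, 589 and 575 against 551, 505 and 544 CPM, with overlapping groups and a log2 fold change of 0.11 ± 0.09 (edgeR adjusted p = 0.531).

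The dehydrogenases gave no call in Acly knockouts. Ldha read 832, 919 and 859 CPM against 852, 899 and 1057 CPM in controls, and Ldhb read 25.5, 24.5 and 28.4 against 24.0, 26.7 and 24.4 CPM. The groups overlapped for both, with log2 fold changes of -0.09 ± 0.11 and 0.08 ± 0.10 (edgeR adjusted p = 0.686 and 0.713). Ldhd varied widely among knockout samples, at 0.672, 0.364 and 1.10 CPM against 0.604, 0.486 and 0.320 CPM (log2 fold change 0.61 ± 0.47, edgeR adjusted p = 0.517). The Ldhb share was 3.67% ± 0.383 in knockouts and 3.31% ± 0.423 in controls (exact permutation p = 0.4, adjusted 0.45, n = 3 each). Summed Ldha and Ldhb TPM was 1100 ± 15.3 against 1247 ± 151 (exact permutation p = 0.3, adjusted 0.386).

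The balance of exporter to bidirectional carrier was read as the log2 ratio of Slc16a3 to Slc16a1 TPM. It was -0.81, -0.42 and -0.34 in the 3 Acly knockouts and 0.12, 0.07 and 0.56 in the controls. Slc16a3 was thus the more abundant per length in each control and the less abundant in each knockout, a difference of -0.78 (exact permutation p = 0.1, the smallest possible; adjusted 0.15). In the LDH set the ratio was -1.11 ± 0.27 in knockouts and -1.12 ± 0.25 in controls (SD, n = 3 each), with overlapping groups (exact permutation p = 1).

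**Figure D3:**
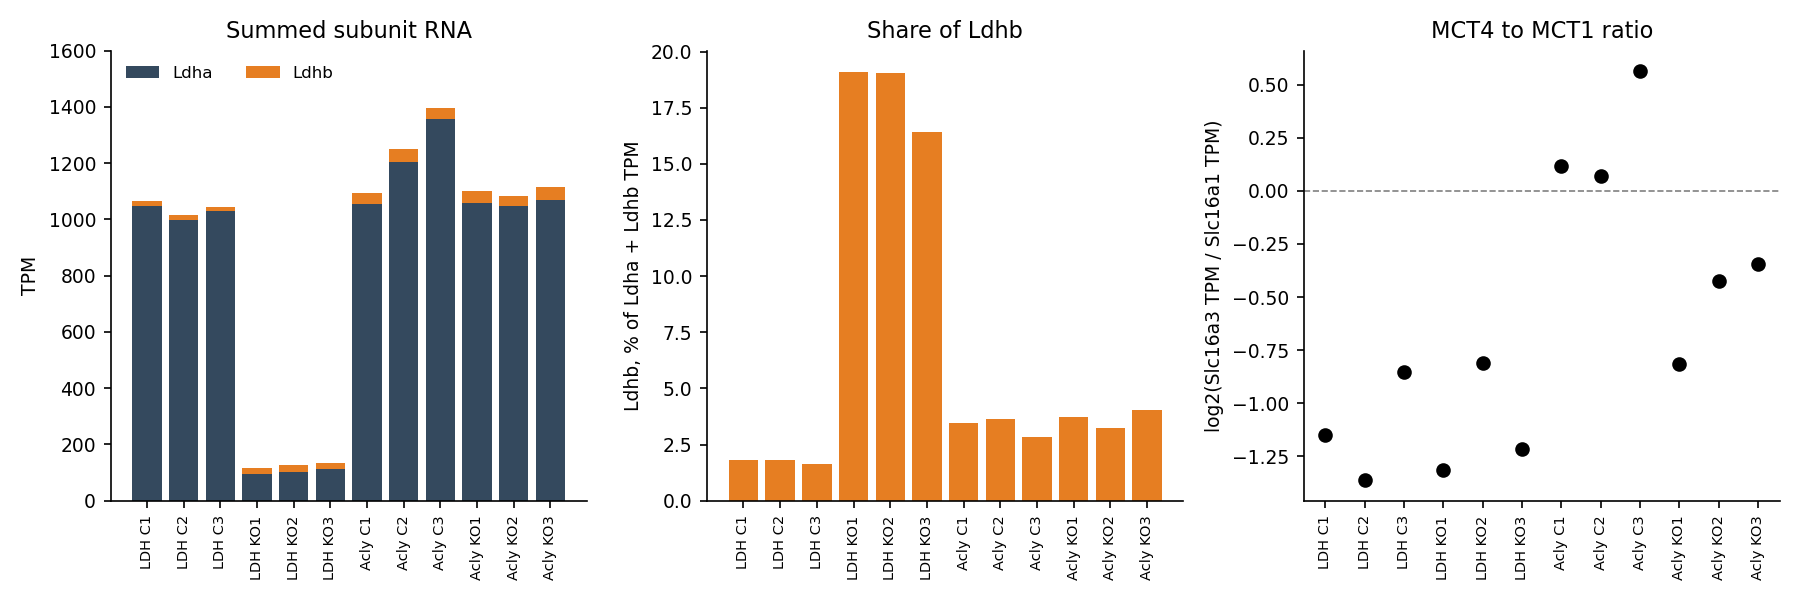
Summed TPM of Ldha and Ldhb as stacked bars (left), Ldhb as a percent of that sum (middle) and the log2 ratio of Slc16a3 to Slc16a1 TPM (right, points) in each of the 12 samples (KO, knockout; C, control). The LDH knockouts have the lowest sums and the highest Ldhb shares, 16.4% to 19.1%, and the 3 Acly controls are the samples above 0 on the right.

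Whether both knockouts acted differently was tested as the difference between their log2 fold changes in a fit of all 12 samples. Ldha, deleted in the LDH knockout only, differed by -3.18 ± 0.14 (edgeR adjusted p = 5.52e-08). It was the 1 of 8 members that passed, where 0.161% of 14251 genes did. For Slc16a3 the difference of 1.17 ± 0.26 did not pass in edgeR (adjusted p = 0.101) and passed in DESeq2 (1.14, adjusted p = 0.00534). Emb differed by 0.66 ± 0.20, Slc16a1 by 0.36 ± 0.12 and Ldhb by 0.31 ± 0.14, none past the threshold in edgeR (adjusted p = 0.234, 0.270 and 0.372). A distinct response of these genes to the 2 deletions was therefore not shown, apart from the deleted Ldha.

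**Figure D4:**
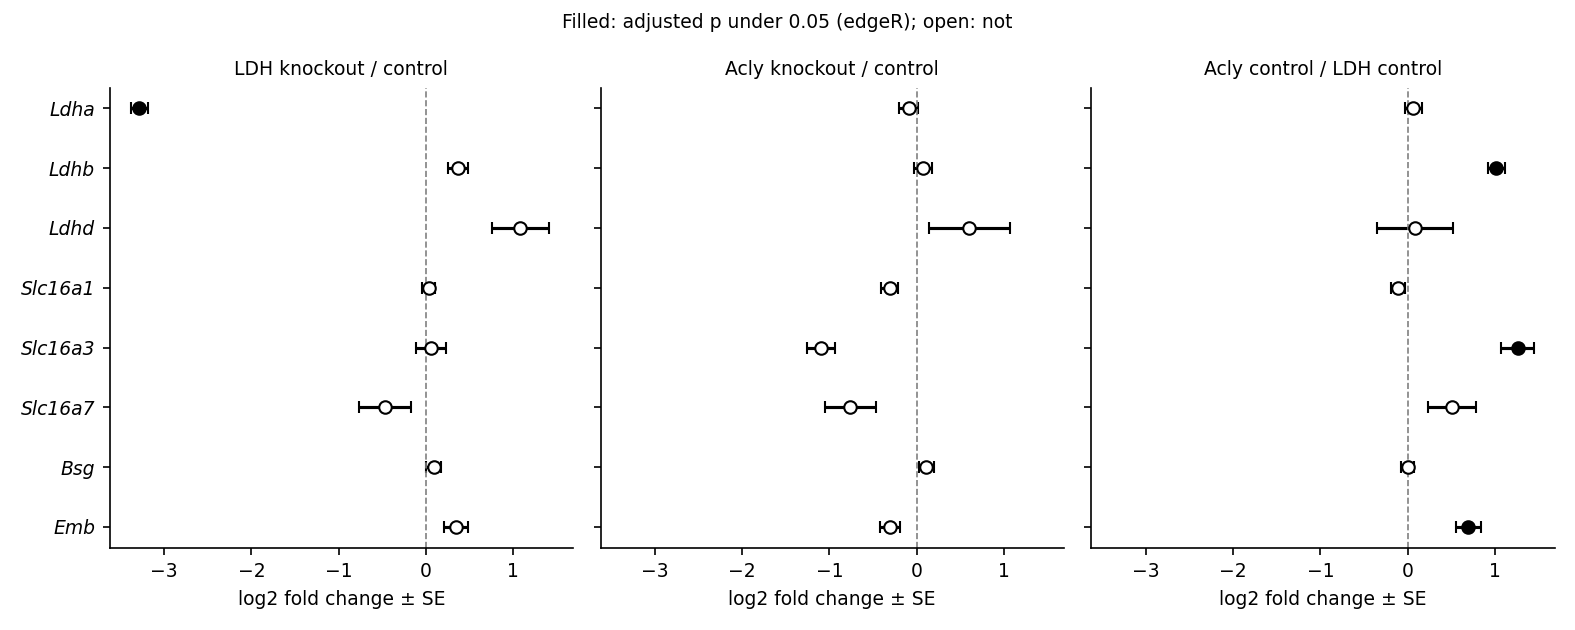
Log2 fold change (x axis, the same in each panel) of the 8 genes with bars for ± 1 SE in LDH knockouts against controls, Acly knockouts against controls and Acly controls against LDH controls; filled points have an edgeR adjusted p under 0.05. Ldha is filled in the first panel, no gene in the second, and Ldhb, Slc16a3 and Emb in the third.

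The control groups differed in age, line and possibly batch, which cannot be told apart, and 55.0% of 14251 genes passed between them. Among the 8 members 3 did, each higher in the Acly controls at E18.5 than in the LDH controls at postnatal day 5. Ldhb was at 25.0 ± 1.46 CPM against 12.4 ± 0.604, or 203% (log2 fold change 1.02 ± 0.10, edgeR adjusted p = 3.11e-06). Slc16a3 was at 58.0 ± 12.1 against 24.2 ± 3.52 CPM, or 240% (1.26 ± 0.19, edgeR adjusted p = 8.77e-05). Emb was at 165 ± 11.6 against 102 ± 6.15 CPM, or 162% (0.70 ± 0.15, edgeR adjusted p = 0.00124). These calls held under all 15 alternatives, and 29.4% of all genes were called in that direction, so the share among the members was near the background. Values of 4 members, these 3 and Slc16a7, were higher in every Acly control than in every LDH control, as were those of 34.7% of all genes. The Slc16a3 mean in Acly knockouts, 26.9 ± 4.19 CPM, lay close to the 24.2 and 25.3 CPM of the LDH groups. Ldhb and Emb stayed above the LDH controls in Acly knockouts. Emb, at 132 ± 20.1 CPM there, overlapped the LDH knockouts, at 129 ± 29.7 CPM.

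Ldha and Bsg did not pass the test between control groups, with log2 fold changes of 0.07 ± 0.09 and 0.0034 ± 0.074 (edgeR adjusted p = 0.579 and 0.972). The median of all genes moved from 0.017 to 0.19 when total counts replaced the TMM scaling, and with total counts Ldha (0.24, edgeR adjusted p = 0.0346) and Bsg (0.18, edgeR adjusted p = 0.0338) were also called, at about that shift. Slc16a1, at -0.11 ± 0.08 with TMM and 0.064 with total counts, was called by neither. Slc16a7 (0.51 ± 0.28) and Ldhd (0.08 ± 0.43) missed the threshold in edgeR as well (adjusted p = 0.133 and 0.881). Ldhb made up 3.31% of Ldha and Ldhb TPM in the Acly controls against 1.75% (exact permutation p = 0.1, adjusted 0.15), and the log2 ratio of Slc16a3 to Slc16a1 was higher by 1.37 (exact permutation p = 0.1, adjusted 0.15). Markers of other cells were mostly higher in the Acly controls, with 10 of 10 muscle, 8 of 8 fibroblast and 6 of 6 endothelial markers called higher. So were 6 of 7 fat cell, 4 of 6 osteoblast and 4 of 5 red blood cell markers tested. Of 8 white blood cell markers 5 were called higher and 1 was called lower. Of 11 chondrocyte markers 8 were called higher in Acly controls and 1, Col2a1, was called lower. Their part in the member values was not tested.

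Genes around lactate metabolism were read as 6 lists. Over all genes tested, 19.6% had an unadjusted p under 0.05 in LDH knockouts and 15.8% in Acly knockouts. In LDH knockouts edgeR called 0 of 7 tested other monocarboxylate carriers (2 at an unadjusted p under 0.05, 0 by DESeq2) and 0 of 4 genes related to lactate dehydrogenase or carrier function (2 and 0). It called 0 of 16 genes that supply pyruvate through glycolysis, of which 7 had an unadjusted p under 0.05, 11 had positive estimates and DESeq2 called 1 (Pfkfb3, the enzyme that makes the activator of phosphofructokinase). Also 0 of 18 genes of pyruvate use (3 at an unadjusted p under 0.05, and 1 by DESeq2, Pdk4, a pyruvate dehydrogenase kinase, lower) and 0 of 16 HIF regulators and targets (4, and 1 by DESeq2, Ndrg1, lower) passed in edgeR.

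The list of NADH transfer held 12 genes, mostly of shuttles that pass electrons of cytoplasmic NADH to mitochondria, another route to regenerate cytoplasmic NAD+. In LDH knockouts 9 of 12 estimates were positive and edgeR called 1, which was higher. Gpd1, the cytoplasmic glycerol-3-phosphate dehydrogenase, was at 21.5 ± 11.9 CPM against 2.49 ± 0.387 (log2 fold change 3.11 ± 0.39, edgeR adjusted p = 0.00716). With a term for Y-linked signal it was 2.65 and no longer passed (adjusted p = 0.320). Gpd1 is also abundant in fat cells. Fat cell markers summed to 20.1 to 83.2 CPM in LDH knockouts and 2.32 to 3.24 in controls, with 6 of 6 tested called higher. These markers summed to 33.0 to 79.1 CPM in Acly knockouts and 15.5 to 63.4 in Acly controls. Their part in the Gpd1 value was not tested.

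In Acly knockouts edgeR called 0 of 9 other carriers (0 at an unadjusted p under 0.05, 0 by DESeq2), 0 of 5 related genes (1 and 0), 0 of 16 genes of pyruvate supply (3 and 1, Aldoc, lower), 0 of 18 of pyruvate use (2 and 1, Pdk1) and 0 of 12 of NADH transfer (2 and 1, Gpd2, lower). Of 17 HIF regulators and targets 1 fell: Car12, a membrane carbonic anhydrase, was at 14.4 ± 1.42 CPM against 27.9 ± 1.88 (log2 fold change -0.93 ± 0.12, edgeR adjusted p = 0.0314). Its adjusted p was between 0.0622 and 0.233 when any sample other than knockout replicate 2 was left out, and 0.0618 with a term for Y-linked signal. On that list 12 estimates were negative and 5 positive, and the median was -0.15. An unadjusted p under 0.05 was found for 8 genes. Adm (1.24), Epas1 (0.41) and Egln2 (0.24) had positive estimates. Car9 (-1.03), Car12 (-0.93), Bnip3 (-0.71), Hif1a (-0.46) and P4ha1 (-0.29) had negative ones. DESeq2 called 3 on the list, all lower (Car12, Bnip3 and Car9), and 249 in the whole table. Slc16a3, a member that is not on the list, also had a negative estimate.

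Between control groups, with 55.0% of all genes called, edgeR called 6 of 9 other carriers, 5 of them higher in Acly controls, among them Slc16a4 (log2 fold change 2.04 ± 0.26) and Slc16a14 (2.12 ± 0.48), with the sodium-coupled carrier Slc5a8 lower (-1.80 ± 0.33). Of the related genes it called 2 of 5: Hcar1, the lactate receptor, was higher (2.66 ± 0.40), and Ppib, a cyclophilin, was lower by the small margin of -0.21 ± 0.08 and lost its call with total counts (edgeR adjusted p = 0.681), in both FPKM fits (limma adjusted p = 0.668 and 0.666), and without Acly control replicate 2 (0.0739) or 3 (0.117) or LDH control replicate 1 (0.0675) or 3 (0.106). It called 9 of 16 genes of pyruvate supply (5 higher, among them Pfkfb3, 0.91 ± 0.16, and Pfkp, 0.80 ± 0.15; 4 lower, among them Hk2, -0.44 ± 0.08). Of pyruvate use it called 12 of 18, with 9 lower, among them pyruvate carboxylase Pcx (-0.89 ± 0.13) and the mitochondrial pyruvate carrier Mpc1 (-0.53 ± 0.09), and 3 higher, among them the alanine transaminase Gpt2 (0.79 ± 0.14). For NADH transfer 7 of 12 were called, among them Got1 (-0.77 ± 0.08), Got2 (-0.42 ± 0.08) and Slc25a11 (0.50 ± 0.09). Gpd1 was also called higher in Acly controls (2.52 ± 0.60, edgeR adjusted p = 0.00318). Of the HIF list 14 of 17 were called, 7 in each direction, with Egln3 (1.40 ± 0.13) and Car9 (1.93 ± 0.23) higher and Myc (-1.02 ± 0.11) lower.

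The genes next to Ldha and Ldhb showed no call in LDH knockouts. Of the 10 genes of the table on each side of Ldha, 10 of 20 were tested in LDH knockouts, and edgeR called 0 (2 at an unadjusted p under 0.05, 0 by DESeq2). Around Ldhb 11 were tested, with 0 called (2 at an unadjusted p under 0.05, 0 by DESeq2).

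Across the 12 samples, which share groups and depth, the profile of log2 CPM most like each member was sought among 10565 genes as a description. Ldha was closest to the fructose carrier Slc2a5 (Pearson r = 0.980), then Fbxo44 (0.966) and Rbfox2 (0.944), and Ldhb to Pafah1b3 (0.994), Mest (0.993) and Maged2 (0.990). For Slc16a3 these were Abhd6 (0.938), Vsir (0.907) and Bnip3 (0.893), a mitophagy receptor of the HIF list. For Slc16a1 they were Hus1 (0.965), Zfp654 (0.960) and Lrba (0.957), for Emb Chl1 (0.927), Swap70 (0.914) and Ctbs (0.904), and for Bsg Zfp768 (0.929), Rps19 (0.926) and Mrpl12 (0.925). The low genes Slc16a7 (Fkbp14, 0.953; Cep192, 0.915; Slc25a27, 0.898) and Ldhd (Eif4g3, 0.844; Cc2d2a, 0.837; Fry, 0.837) rest on few counts. Among the members themselves, r was highest for Slc16a3 with Emb (0.79) and for Ldhb with Emb (0.73), the 3 genes that were higher in Acly controls, and lowest for Ldha with Ldhd (-0.68).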

How the data were processed

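Messenger RNA was selected with oligo(dT), made into libraries and sequenced by BGI, per the labels' protocols. The deposited table has 17922 genes in 51 columns that hold, per the file headers, a read count, an FPKM and a TPM value for each sample. Between 7.32% and 8.16% of a sample's deposited counts are not whole numbers. The deposited values were therefore taken to be expected counts, an estimate that divides ambiguous reads among genes. HISAT2 2.0.4 and the build mm9 are named in the submitters' processing notes. The counting program, annotation and use of strand are not given in the sources used here, so overlapping or antisense genes cannot be told apart.

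Expected counts were rounded and tested in edgeR 4.0.16 (R 4.3.3) by the quasi-likelihood test with TMM scaling, filterByExpr and Benjamini-Hochberg adjustment over all genes at a threshold of 0.05, two-sided. Each knockout was fitted with its control. Control groups and the difference of effects came from all 12 samples. SE is the log2 fold change divided by the square root of F. The floor of 3 counts covers counting error only. The deposited FPKM entered limma 3.58.1 on log2(FPKM + 0.1) and log2(FPKM + 1) as an alternative, and DESeq2 1.42.0 was another. The deposited TPM gave ratios, compared by exact permutation tests. Scripts were tested on simulated data.

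Named genes are all 8 members, up to 3 called genes with the lowest p per list and comparison, and the 3 genes with the highest r per member (mean of at least 5 CPM). Genes that only DESeq2 called, Col2a1, Acan, Matn1, Col1a1, Dcn, Adm, Epas1, Egln2, Hif1a and P4ha1 were named outside that rule, after values were seen. The members and lists were chosen with earlier results of these data known. Of the gene identifiers, 17814 were in the RefSeq list of GRCm38.p6, which was used for names, gene order and promoter sequence only.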

Additional observations from a re-analysis of the deposited data

Results flagged for a closer look

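The effect on Ldha differed between the knockouts, by -3.18 ± 0.14 on the log2 scale (LDH effect minus Acly effect, edgeR adjusted p = 5.52e-08 over all 12 samples). Ldha is the gene deleted in the LDH knockout, in which it was lower in 3 of 3 samples than in every control, while the Acly groups overlapped.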

How the results depend on the processing

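The Ldha fall in LDH knockouts and the higher Ldhb, Slc16a3 and Emb of Acly controls kept direction and call under every alternative run. Called members in Acly knockouts numbered 1 in place of 0 (Slc16a3) with no filter, with DESeq2 and with all 12 samples in the fit, and 0 to 1 when a replicate was left out. Between controls, 5 in place of 3 were called with total counts and with both FPKM fits, which add Ldha and Bsg. For the difference of effects, 2 in place of 1 were called with DESeq2. Replicate numbers did not pair the samples (same-number correlations of deviations 0.048, -0.13 and -0.018 in the LDH set, 0.020, -0.19 and -0.19 in the Acly set). With them as a replicate block, Acly knockouts had 1 called member (Slc16a3, -1.09, edgeR adjusted p = 0.0321), and Car12 lost its call (-0.94, edgeR adjusted p = 0.0884; 0.0066 to 0.233 when a replicate was left out).

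Estimates near 0 changed sign. With the Y-linked term, LDH knockouts gave Slc16a3 -0.33 and Bsg -0.088. Between controls Bsg was -0.013 with median-of-ratios scaling and with DESeq2, -0.0024 with no filter and -0.0067 with the Y-linked term, and Slc16a1 was 0.064 with total counts and 0.061 and 0.059 with FPKM + 0.1 and + 1. The difference of effects for Bsg was 0.019 with total counts and 0.015 and 0.014 with FPKM. Leaving out a replicate gave -0.0020 to 0.060 for Slc16a1 and -0.15 to 0.19 for Slc16a3 in LDH knockouts, with -0.14 to 0.14 for their log2 ratio, and -0.15 to 0.0096 for Ldha in Acly knockouts. It gave -0.031 to 0.13 for Ldha, -0.13 to 0.30 for Ldhd and -0.070 to 0.055 for Bsg between controls, and -0.066 to 0.051 for Bsg in the difference of effects. The cause was not tested.

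Genes called in the whole table numbered 332 in LDH knockouts (888 with DESeq2, 3 with the Y-linked term, 1068 without knockout replicate 3 and 95 to 154 without any other sample), 19 in Acly knockouts (249 with DESeq2, 32 with no filter, 31 with all 12 samples, 11 with total counts, 6 with the Y-linked term, 132 without knockout replicate 2 and 0 to 6 without any other sample), 7844 between controls (6705 to 8194) and 23 for the difference (217 with DESeq2, 143 without LDH knockout replicate 3, otherwise 5 to 31). With the replicate block they numbered 8 in Acly knockouts and 5 for the difference. Ldhd and Slc16a7 did not pass the FPKM filter, nor Ldhd that at 1 CPM, and depth limits both.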
